A study of Mus musculus with 4 samples.

Results

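The SUMO conjugation pathway was described in mouse liver through 8 genes, Sumo2, Sumo3, Sae1, Uba2, Pias1, Ranbp2, Senp2 and Senp6, of 21683 protein-coding genes to which the deposited data could be assigned. The members were the assembled loci lying over GRCm38 exons of these genes. The genes were listed with earlier results of these data in view, and Sae1 and Sumo2 were singled out for how they differ between the genotypes. Values of the members in knockout against wild type are therefore a description, with no test.

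Liver RNA was sequenced from male mice on the C57BL/6 background (C57/BL6 in the labels), 2 wild type libraries and 2 libraries of knockout animals homozygous for a disrupted hemojuvelin gene, which encodes a co-receptor for bone morphogenetic proteins. From an age of 5 weeks both genotypes ate the AIN-93G low iron diet, with iron at 2.5 mg/kg, and after 50 days, at 12 weeks, the liver was taken. Diets with more iron were not analysed here. The labels do not say which animal each library came from, so the spread between libraries of a group may be technical in part.

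SUMO proteins are small modifiers that are joined to lysines of other proteins, much as ubiquitin is, and they change where those proteins go and what they bind. A precursor is trimmed by a SENP protease, activated by the heterodimer of Sae1 and Uba2, passed to a conjugating enzyme, and attached with the help of ligases such as the PIAS proteins and Ranbp2. SENP proteases also remove SUMO again, so that modification is reversible. Sumo2 and Sumo3 are nearly the same in their mature form.

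The coding sequences of the 2 modifiers and of copies of Sumo2 are shown because the copies bear on where reads of Sumo2 can be placed. The sequences are those of GENCODE M21 on GRCm38, 5′ to 3′, and capitals in the lower 3 mark bases that differ from Sumo2. Sumo2 lies on the minus strand at chr11:115523102-115536276, Sumo3 on the plus strand at chr10:77606097-77618331. The processed pseudogenes Gm13430 (chr2:36389132-36389419, plus strand) and Gm9836 (chr5:24256822-24257037, plus strand, first 153 bases shown) were the 2 copies over which a locus of their own was assembled.
Sumo2: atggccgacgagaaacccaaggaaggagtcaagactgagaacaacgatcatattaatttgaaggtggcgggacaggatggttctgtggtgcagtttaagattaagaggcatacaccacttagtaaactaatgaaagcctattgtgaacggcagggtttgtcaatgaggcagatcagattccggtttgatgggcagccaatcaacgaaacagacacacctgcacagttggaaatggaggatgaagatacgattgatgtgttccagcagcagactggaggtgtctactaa
Gm13430: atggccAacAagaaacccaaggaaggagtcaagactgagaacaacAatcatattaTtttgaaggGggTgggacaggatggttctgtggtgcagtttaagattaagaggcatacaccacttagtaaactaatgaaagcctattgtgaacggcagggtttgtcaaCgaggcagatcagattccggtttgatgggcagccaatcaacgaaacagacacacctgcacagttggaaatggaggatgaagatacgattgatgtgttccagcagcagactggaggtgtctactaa
Gm9836: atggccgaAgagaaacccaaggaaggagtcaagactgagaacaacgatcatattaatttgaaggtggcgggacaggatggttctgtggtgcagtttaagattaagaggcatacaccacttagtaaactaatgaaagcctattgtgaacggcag
Sumo3: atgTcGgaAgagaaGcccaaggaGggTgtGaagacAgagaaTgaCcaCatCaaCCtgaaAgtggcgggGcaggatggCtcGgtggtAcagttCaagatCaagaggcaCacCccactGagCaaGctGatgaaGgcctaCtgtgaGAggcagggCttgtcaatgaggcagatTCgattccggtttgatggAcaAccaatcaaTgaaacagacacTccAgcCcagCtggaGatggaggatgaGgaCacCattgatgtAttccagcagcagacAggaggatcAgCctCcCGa
Gm13430 differed from Sumo2 at 7 of 288 bases and Gm9836 at 1 of 153. Sumo3, of whose 333 coding bases the first 288 are shown, differed at 52 of 285 aligned bases, and bases set against a gap are in lower case. The differences from Sumo3 run along the whole reading frame, whereas Gm13430 keeps long stretches without any.

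The unit is FPKM, a fragment number corrected for transcript length and for the size of the library, which compares levels between genes per length. Values were divided by a scaling factor per library, and each log2 difference is the knockout mean less the wild type mean of log2(scaled FPKM + 1), a scale that understates changes of low genes. The libraries held 51.3 to 131.6 M fragments, if the smallest step between confidence bounds is 1 fragment, in 26238 to 56237 assembled loci. Knockout library 1 was the most fragmented, with 38.5% of its loci at 150 to 250 bases against 4.48% to 21.3% in the others. Over 7931 genes tested, the log2 ratio of knockout library 2 to knockout library 1 had a Spearman correlation of 0.478 with GC content. For wild type library 2 to wild type library 1 it was 0.264. Each is a description across genes of 2 libraries. Hemojuvelin (Hfe2 in the annotation) stood at 9.22 and 29.6 scaled FPKM in wild type, over 45.1% and 81.5% of its transcript, lacked a locus in knockout library 1 and stood at 0.237 over 14.3% of its transcript in knockout library 2. Of the hepatocyte markers Alb and Serpina1a had no value in any library, and the other 5 (4 with a value in knockout library 2) summed to 9566 to 14120 scaled FPKM.

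Among markers of other liver cells, the Kupffer sums were lower in both knockout libraries. The stellate, endothelial and cholangiocyte sums overlapped between the genotypes. The 6 Kupffer cell markers summed to 77.5 and 91.5 scaled FPKM in wild type against 49.4 and 68.8 in knockout, with 4 of them lower in both knockout libraries and 1 (Marco) without a value in knockout library 1. The 6 stellate cell markers summed to 89.7 and 74.5 in wild type against 103.8 and 88.5 in knockout, with 5 higher in both. Of these, Des (0.68 to 1.30 scaled FPKM over the libraries) and Pdgfrb (1.16 to 1.94) were low and not among the genes tested. Over all genes tested, 22.3% were higher and 23.8% lower in both knockout libraries. The 6 endothelial markers summed to 45.7 and 57.4 against 52.9 and 67.0, with Stab1 higher and Lyve1 lower in both knockout libraries. The 5 cholangiocyte markers summed to 34.6 and 24.4 against 26.1 and 15.0 (from 3 and 3 against 2 and 5 with a value). The lymphocyte markers, of which 3 and 2 had a value in wild type, summed to 3.04 and 2.17 there. In knockout no lymphocyte marker had a value in library 1, and 3 summed to 1.44 in library 2. Of the 4 erythroid markers Hba-a1 and Slc4a1 had no locus in any library, and the rest had values only in wild type library 1, at 79.2 from 1 marker, and in knockout library 1, at 122 from 2. Their part in the values below was not tested, and in bulk liver fewer cells of a type cannot be told apart from less RNA per cell.

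Over the members' exons 54 loci were assembled, of which 51 were used, 14 and 12 in wild type against 16 and 9 in knockout. Of the rest, 2 had an FPKM over 3 times the midpoint of their confidence bounds and 1 was mostly intronic. All 8 members had a value in both wild type libraries and 7 in both knockout libraries, and these 7 passed the filter on low values.

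**Figure D1:**
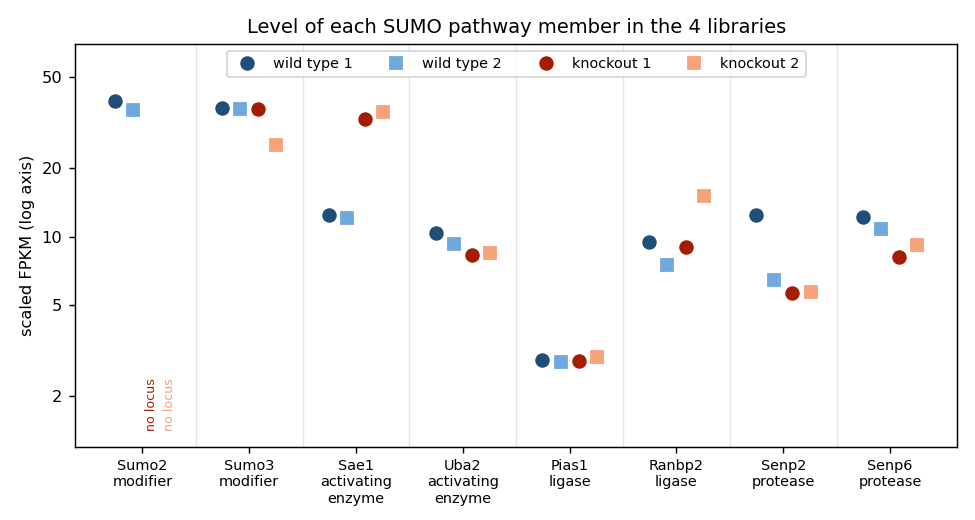
Scaled FPKM (log axis) of the 8 members in the 4 libraries, 1 point per library. Sae1 stands at 12.4 and 12.0 in wild type against 32.8 and 35.3 in knockout, while Sumo2 has points in wild type only because no locus was assembled over it in knockout.

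Among the modifiers, Sumo2 was assembled in wild type only. Its level was 39.2 and 36.1 scaled FPKM there (37.6 ± 2.20, SD, n = 2), each from 1 locus over all 4 exons, and no locus lay over its exons in either knockout library. The deposited FPKM were 36.6 with confidence bounds of 27.9 and 31.1 in wild type library 1, and 33.0 with bounds of 25.8 and 30.0 in wild type library 2, so both values lay above their own bounds. No locus is not a measured 0, and no fold is given.

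The neighbours of Sumo2 had loci in every library, though Jpt1 was covered only in small part in knockout library 1. Jpt1, the gene on one side, had 1 or 2 loci per library and Nup85, a nuclear pore gene on the other side, had 1 to 6. In knockout library 2 the stretch free of loci ran from base 115514378 to base 115564454 of chromosome 11, and in knockout library 1 from base 115498271 to base 115565198. Both stretches hold the whole of Sumo2, and that of knockout library 1 also holds most of Jpt1 (bases 115497353 to 115514387).

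Genes seen in wild type and lacking a locus in both knockout libraries were rare. Of 8939 genes with a value in both wild type libraries, 17 (0.190%) had none in either knockout library, and of 8256 with a value in both knockout libraries, 12 (0.145%) had none in either wild type library. In a window of 2-fold around the level of Sumo2, chosen after its values were seen, the counts were 4 of 1477 (0.271%) and 1 of 1438 (0.0695%). The 4 were Sumo2, Hmgn2, which encodes a nucleosome-binding protein, the carboxylesterase gene Ces2c, and Mthfsl.

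A search of GENCODE transcripts with the Sumo2 transcript found 21 genes that share at least 100 aligned bases at 80% identity or more, limits chosen after the data were seen. Of these 18 were annotated pseudogenes, at 80.8% to 100% identity, 11 of them at 95% or more and 5 at 99% or more. The first 286 bases of the Sumo2 reading frame are found without any difference in Gm10241 on chromosome 16, so a read inside them can be placed at either. How the authors' alignment treated such reads is not given in the sources used here, and the level of Sumo2 is uncertain for this reason.

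Most copies had no assembled locus. Of the 18 pseudogenes 12 had no locus in any library, 4 lay inside a larger locus of a host gene, and 2 had a locus of their own. Gm13430 had one in wild type library 1 only, of 204 bases at 6.58 FPKM with bounds of 0.395 and 1.63. Gm9836 had one in knockout library 2 only, of 189 bases at 14.7 FPKM with bounds of 0.362 and 1.25. Both FPKM lie far above their bounds, and neither copy held a locus in the other 3 libraries.

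For comparison, among 2886 annotated pseudogenes of 200 to 400 bases, 28 to 57 per library (0.970% to 1.98%) held a locus of their own. The 4 copies inside larger loci were Gm12335 in Smg6, Gm13690 in Dusp19 and Gm12721 in Fyb2, each in all 4 libraries, and Gm10241 in Yeats2, in knockout library 2 only. The host locus over Gm10241 was at 2.33 FPKM (bounds 2.17 and 2.48). The values of these host loci are densities over whole genes and cannot be divided between host and copy.

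**Figure D2:**
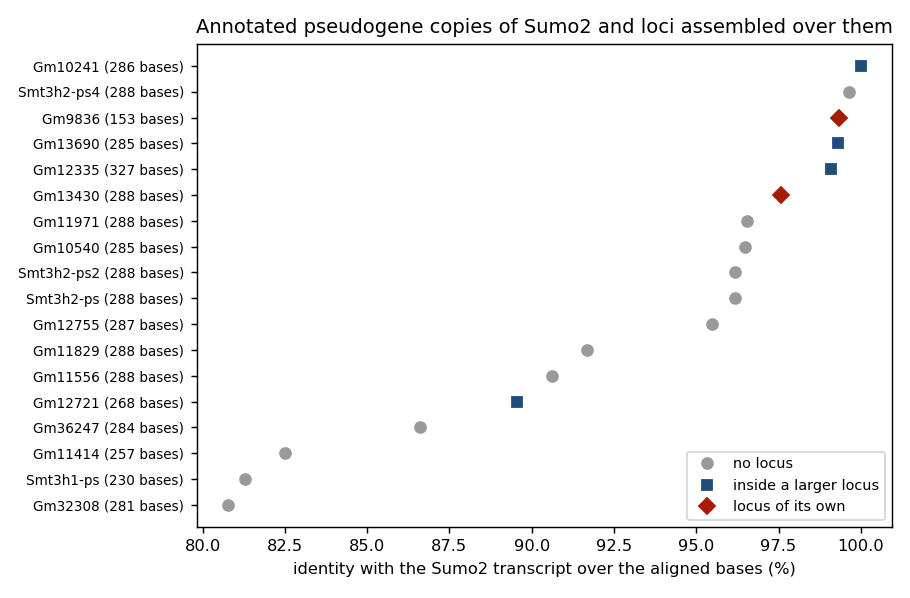
Identity of the 18 annotated pseudogene copies with the Sumo2 transcript (%), with the aligned bases in parentheses and the marker showing whether a locus was assembled over the copy. The 2 copies with a locus of their own, Gm9836 and Gm13430, lie above 95% identity, where 6 others had no locus.

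A longer match to Sumo2 lies within a protein-coding gene. The last part of the Samd8 transcript holds a reverse-strand stretch (chr14:21796880-21797628) that matches 784 aligned bases of the Sumo2 transcript at 89.9% identity. Samd8, a gene of the sphingomyelin synthase family, stood at 5.12 and 6.38 scaled FPKM in wild type against 7.82 and 8.17 in knockout (log2 difference 0.42, SE 0.20). The groups did not overlap, and the share of its reads that fell in the stretch was not tested. Samd8 was looked at after its values were seen.

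Sumo3 stood at 36.5 and 36.4 scaled FPKM in wild type against 36.4 and 25.3 in knockout. The means were 36.5 ± 0.103 and 30.9 ± 7.87 (SD, n = 2 each), a log2 difference of -0.26 (SE 0.24). The other libraries stood together and knockout library 2 alone was lower, so the groups overlapped. The locus of knockout library 2 held 1556 exonic bases against 2487 to 2588 in the others. Without that library the log2 difference was -0.01. Sumo3 has 8 pseudogene copies at 80.6% to 91.4% identity, none of them at 95% or more. Per length, Sumo2 and Sumo3 were at similar levels in wild type.

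The activating enzyme gave the widest separation among the members. Sae1 (ENSMUSG00000052833.9, chr7:16320234-16387806, minus strand), the smaller subunit, stood at 12.4 and 12.0 scaled FPKM in wild type against 32.8 and 35.3 in knockout. The knockout values were far above those of wild type, and the spread inside each group was small by comparison. The means were 12.2 ± 0.267 and 34.1 ± 1.76 (SD, n = 2 each), a ratio of 2.79. The log2 difference was 1.41 (SE 0.17), rank 71 from the highest of 7931 genes.

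The raw values of Sae1 showed the same separation. As deposited they were 11.6 FPKM (bounds 9.93 and 11.4) and 11.0 FPKM (bounds 9.29 and 11.4) in wild type. In knockout they were 39.3 FPKM (bounds 37.9 and 41.2) and 33.7 FPKM (bounds 33.1 and 35.1). For these loci the lowest bound in knockout was above the highest in wild type.

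In 3 libraries a single locus ran over all 9 exons of Sae1, whose longest coding transcript has 1875 bases. In knockout library 2 the assembly broke between exons 2 and 3. The locus used there covered exons 3 to 9, and a second locus over exons 1 and 2, with 249 exonic bases, was left out because its 19.5 FPKM lay far above its bounds of 4.21 and 6.10. On the 5′ side the used locus began at base 16370724, in the intron before exon 3. The junction is shown because it joins the 2 exons between which the assembled density of that library divides. It lies inside the reading frame, on the minus strand of GRCm38, from exon 2 (chr7:16378365-16378476) to exon 3 (chr7:16370287-16370460), with the first 25 bases of exon 3 in capitals and the last 25 of exon 2 in lower case.
Sae1: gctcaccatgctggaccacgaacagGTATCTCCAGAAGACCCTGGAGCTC
By the midpoint of the bounds the density was 5.16 FPKM over exons 1 and 2 and 34.1 over exons 3 to 9. The first lay below the midpoints of the whole-gene loci of wild type, 10.65 and 10.33 FPKM, so these loci do not show that the Sae1 difference holds over exons 1 and 2. The part that the short length of the first locus plays in this gap was not tested, and no such split can be read in the other libraries, where the locus is whole. The search for copies found none of Sae1, Uba2 or Pias1.

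**Figure D3:**
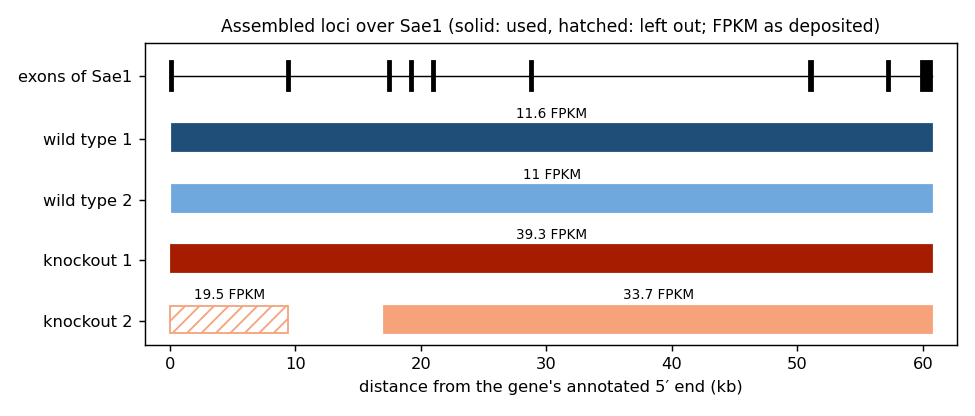
Assembled loci over Sae1 in each library against distance from the annotated 5′ end of the gene (kb), with the exons on top and deposited FPKM above each locus. The whole-gene loci of wild type stand at 11.6 and 11.0 FPKM and that of knockout library 1 at 39.3, and knockout library 2 has 2 loci, at 19.5 (left out) and 33.7 FPKM.

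Uba2 (chr7:34140688-34169599, minus strand), the catalytic subunit that pairs with Sae1, stood at 10.4 and 9.27 scaled FPKM in wild type against 8.31 and 8.52 in knockout. The knockout values were a little lower and did not overlap those of wild type. The means were 9.85 ± 0.811 and 8.41 ± 0.149 (SD, n = 2 each), a log2 difference of -0.20 (SE 0.18). The ratio of Sae1 to Uba2 was 1.19 and 1.30 in wild type against 3.95 and 4.15 in knockout. A ratio within a library does not depend on how libraries were scaled. For the matching pair of the NEDD8 pathway, Nae1 to Uba3, the ratio was 0.743 and 0.579 in wild type against 0.569 and 0.786 in knockout, so those groups overlapped. The 2 subunits of the SUMO activating enzyme were at similar levels per length in wild type and apart in knockout.

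The 5 tested genes with the pattern most like that of Sae1 over the 4 libraries were Abcc6, Hddc3, 1110038F14Rik, Pla2g12a and Haus4, at Euclidean distances of 0.199 to 0.247 between centred log2 profiles. Abcc6, a transporter of the liver that releases ATP, stood at 4.96 and 5.27 in wild type against 12.9 and 13.8 in knockout. Pla2g12a, a secreted phospholipase A2, measured 6.25 and 6.65 against 14.9 and 19.5. Haus4, a subunit of the augmin complex of the spindle, measured 2.71 and 3.09 against 7.43 and 8.59. Each of the 5 had a log2 difference between 1.21 and 1.35, which follows from choosing them for their likeness to Sae1 in these libraries.

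Among the ligases, Pias1 and Ranbp2 did not separate the genotypes. Pias1 stood at 2.87 and 2.81 scaled FPKM in wild type against 2.86 and 2.96 in knockout (log2 difference 0.03, SE 0.19). The 4 values are close to each other and the groups overlapped. The sign turned to -0.11 under quantile normalization and to -0.057 with the midpoints of the bounds, so Pias1 had no direction.

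Ranbp2, a giant nucleoporin on the cytoplasmic face of the nuclear pore with SUMO ligase activity, stood at 9.43 and 7.51 scaled FPKM in wild type against 9.06 and 15.1 in knockout. Knockout library 2 alone was high, and the groups overlapped. The means were 8.47 ± 1.36 and 12.1 ± 4.25 (SD, n = 2 each), a log2 difference of 0.43 (SE 0.29). Without knockout library 2 the log2 difference was 0.09, and without knockout library 1 it was 0.79.

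In the 3 libraries where Ranbp2, with 29 exons, was broken up, the locus at the 3′ end was the densest. In wild type library 1 the locus over exons 1 to 13 stood at 4.45 FPKM and that over exons 20 to 29 at 11.5 FPKM. In wild type library 2 the first locus, over exons 1 to 5, stood at 3.07 FPKM and the last, over exons 14 to 29, at 8.60 FPKM. In knockout library 1 a locus over exons 10 to 15 stood at 2.78 FPKM and that over exons 25 to 29 at 26.1 FPKM. Knockout library 2 had 1 locus over all 29 exons at 14.4 FPKM, so no gradient can be read there. The 12 pseudogene copies of Ranbp2, at 89.1% to 93.6% identity, held no locus in any library.

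Both proteases were lower in knockout, with 1 of them resting on a single wild type library. Senp2 stood at 12.5 and 6.46 scaled FPKM in wild type against 5.69 and 5.71 in knockout. Wild type library 1 stood alone and the other 3 were close, though the groups did not overlap. The means were 9.45 ± 4.24 and 5.70 ± 0.0167 (SD, n = 2 each). The log2 difference was -0.58 (SE 0.33), and -0.16 without wild type library 1. The locus of that library ended before the others and held 4213 exonic bases against 6590 to 6823. Its 1 pseudogene copy, Gm5402 at 91.0% identity, had no locus.

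Senp6, which prefers chains of Sumo2 and Sumo3, stood at 12.2 and 10.8 scaled FPKM in wild type against 8.12 and 9.19 in knockout. The knockout values were lower, without overlap. The means were 11.5 ± 0.981 and 8.65 ± 0.755 (SD, n = 2 each), a log2 difference of -0.37 (SE 0.19). The values came from 1 to 3 loci per library, and 245 bases of the transcript match Atp5l at 96.7% identity. In wild type library 2 the loci at 15.79 FPKM (bounds 8.665 and 12.48) and 11.83 FPKM (bounds 8.346 and 10.67) lay above their own bounds. With midpoints of the bounds the log2 difference was -0.33.

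In wild type the order of levels per length was Sumo2 and Sumo3, then Sae1, Senp6, Uba2, Senp2 and Ranbp2, and last Pias1. From Sae1 down to Ranbp2 the means ran from 12.2 to 8.47 scaled FPKM, and neighbours in that order differed by less than the larger of their SDs, except Senp6 and Uba2. Sumo2 and Sumo3 also differed by less than that. In knockout Sae1, at 34.1 ± 1.76, stood level with Sumo3, at 30.9 ± 7.87 (SD, n = 2 each), and above every other member measured.

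Counted over the 7 members with a value in all libraries, both knockout libraries were above both wild type libraries for 1, below for 3, and overlapping for 3. The groups did not overlap for 46.1% of all genes tested, 22.3% higher and 23.8% lower, and the members' median log2 difference was -0.20 against 0.02 over all genes. The split follows the scaling. With values as deposited the median over all genes was 0.19, 35.8% of genes were higher and 9.20% lower, and 3 members were higher (Sae1, Pias1 and Ranbp2) and 1 lower (Senp6). Under quantile normalization 18.9% of genes were higher and 25.7% lower, and 1 member was higher and 4 lower. Sae1 was higher and Senp6 lower under all 3 scalings.

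**Figure D4:**
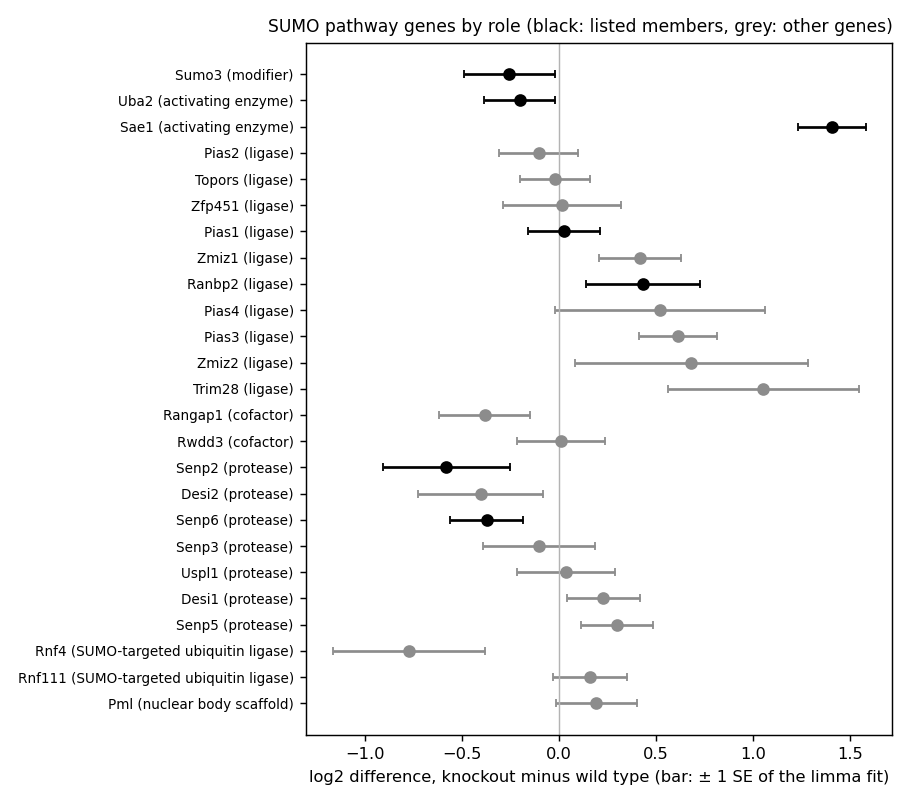
Log2 difference, knockout minus wild type, with its SE from limma, for the 25 SUMO pathway genes tested, ordered by role (black: listed members, grey: other genes). Sae1, at 1.41, lies to the right of every other gene, and Trim28, at 1.05, is next, with an SE of 0.49.

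The rest of the pathway was read from a list of 21 further genes chosen by role. Of these 18 were tested, and Nsmce2, Senp1 and Senp7 were not, since in at least 1 library no locus was found or too little of the transcript was assembled. None passed limma at an adjusted p under 0.05, as for 0% of all genes, and 1, Pias3, had an unadjusted p under 0.05, against 11.2% of all genes (5.85% higher and 5.33% lower). Both knockout libraries were above both wild type libraries for 6 (Pias3, Trim28, Zmiz1, Senp5, Desi1 and Rnf111) and below for 2 (Rangap1 and Rnf4), and 10 overlapped. The groups thus did not overlap for 44.4% of these genes, near the 46.1% of all genes tested. The median log2 difference was 0.10. With values as deposited 8 were higher and 0 lower, and under quantile normalization 5 were higher and 3 lower.

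Pias3, a ligase first known as an inhibitor of STAT3, stood at 1.67 and 2.12 in wild type against 3.51 and 3.32 in knockout (log2 difference 0.61, SE 0.20, limma adjusted p = 0.430). It lies at chr3:96696384-96706070, near the disrupted hemojuvelin gene (chr3:96525172-96529210). An effect of the disrupted allele on nearby genes cannot be told apart from a response of the pathway here. Pias2 measured 10.6 and 11.6 against 9.10 and 11.5 and overlapped.

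Several genes were set apart by knockout library 2 alone. Trim28, a co-repressor with SUMO ligase activity, measured 8.46 and 8.80 in wild type, 11.1 in knockout library 1 and 31.9 in knockout library 2. Zmiz2 stood at 1.72 and 2.37 in wild type against 1.64 and 7.93 in knockout, and Pias4 1.37 and 2.32 against 1.38 and 5.80. Their coding transcripts have GC contents of 59.6%, 59.1% and 60.8%, against a median of 49.4% over all genes tested. Ranbp2, also high in knockout library 2 alone, has 40.6% GC. The part of GC content in these values was not tested. Zmiz2 and Pias4 turned to log2 differences of -0.20 and -0.24 without that library. Sae1 has 51.5% GC, and the part of GC content in its values was not tested either.

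Rnf4, a ubiquitin ligase that recognises SUMO chains, stood at 31.7 and 33.9 in wild type against 27.9 and 12.5 in knockout (log2 difference -0.77, SE 0.39). Both knockout libraries were lower, knockout library 2 by far the most. Rangap1, which binds Ranbp2 at the nuclear pore when it carries SUMO, measured 10.8 and 15.3 against 9.12 and 10.2 (log2 difference -0.38). Among the proteases, Senp5 stood at 4.13 and 3.91 in wild type against 5.31 and 5.04 in knockout (log2 difference 0.30), and Senp3 14.4 and 8.87 against 9.34 and 11.8, overlapping.

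The NEDD8 pathway attaches another ubiquitin-like modifier with its own enzymes. Of its 19 genes tested 1 was higher in both knockout libraries, 11 were lower and 7 overlapped, at a median log2 difference of -0.21, against 22.3% of all genes higher and 23.8% lower. With values as deposited these became 2 higher and 1 lower and under quantile normalization 2 higher and 9 lower, and the difference between the pathways was not tested. A log2 difference of 1 or more in size was found for 2 of the 25 SUMO genes (8%), Sae1 and Trim28, for 1 of the 19 NEDD8 genes (5.26%) and for 4.61% of all genes tested. Sae1 was listed with its difference in view, and Trim28 fell to 0.33 without knockout library 2, so no excess is read from these shares.

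**Figure D5:**
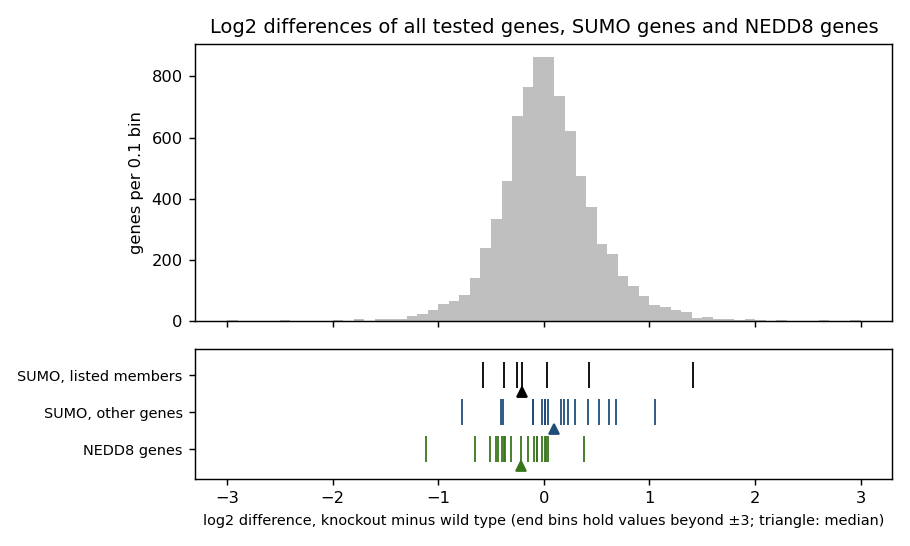
Number of tested genes per 0.1 of log2 difference (top), and the log2 difference of each SUMO and NEDD8 gene as a tick with the list's median as a triangle (bottom). The medians are -0.20 for the listed SUMO members, 0.10 for the other SUMO genes and -0.21 for the NEDD8 genes, and the tick of Sae1 at 1.41 stands at the right edge of the SUMO genes.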

How the data were processed

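Liver RNA of 2 wild type and 2 hemojuvelin knockout libraries was measured. The submitters' processing notes name FastQC, TopHat, Cufflinks and mm9, with versions not given in the sources used here. The deposited values are FPKM with confidence bounds, for loci the authors had assembled in each library separately, without gene names. Their ends fit GRCm38 genes (13.5% to 33.2% of long loci within 20 bases, against 0.168% to 0.258% after a shift), so GENCODE M21 was used.

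A locus went to the gene whose exons it overlapped most. It was dropped where under 50% of it lay inside that gene, or where a second gene had over 0.25 of that exonic overlap. Mostly intronic loci over a single exon and loci whose status was not OK were dropped too. So were loci whose FPKM was over 3 times the midpoint of their bounds. Loci of a gene were averaged with their exonic bases as weights, provided they covered 50% or more of a coding transcript. Scaling used the median of ratios (factors 0.935 and 0.915 for wild type, 1.20 and 0.955 for knockout). A value in every library was required, which left 7948 genes. Of these, 7931 at 1 FPKM or more in at least 2 libraries entered limma 3.58.1 (R 4.3.3). Genes lacking a value in a library, such as Sumo2 and hemojuvelin, are thus outside the shares over all genes tested. The fit was on log2(scaled FPKM + 1), with a trend and Benjamini-Hochberg adjustment, two-sided, tested on simulated data. With 2 libraries against 2 an exact permutation test cannot go below 0.333. The limma p-values set a difference against the spread between these libraries, moderated over all genes tested. Copies were searched with blastn 2.17.0.

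The members, the lists and these limits were chosen with earlier results of these data known. Named are the 8 members, the other pathway genes, Sumo2 copies with a locus, hemojuvelin and the 5 genes nearest to Sae1. Some genes of the lists are not reported here, and the counts leave them out. Alternatives were pseudocounts, filters, scalings, no trend, the replicate block, the highest locus, each library left out and, added after seeing the data, the midpoint of the bounds.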

Additional observations from a re-analysis of the deposited data

How the results depend on the processing

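The log2 difference of Sae1 stayed positive in all alternatives, from 1.35 to 1.61. Without knockout library 1 it was 1.49, where the lone knockout library is assumed to vary like wild type. Because Sae1 was chosen from these values, no call is read from its p-values. The number of genes past an adjusted p of 0.05 was 0, 1 with values as deposited, and 1 to 385 with a library left out (385 without knockout library 1, 29 without knockout library 2, and 1 without either wild type library). Past an unadjusted p of 0.05 it was 887, and 260 to 2213 with a library left out (2213 without knockout library 1, 1514 without knockout library 2, 260 and 282 without wild type library 1 or 2). SUMO genes past the adjusted threshold numbered 0 in every fit that kept all libraries. With a library left out 1 group holds a single library, so only log2 differences are given for SUMO genes. Without knockout library 1 they were 1.80 for Trim28, -1.29 for Rnf4, 1.57 for Zmiz2 and 1.49 for Sae1. With all libraries they were 1.05, -0.77, 0.68 and 1.41, and Sae1 was chosen from these values. The cause of these changes between fits was not tested.

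Signs turned for several genes, mostly those with small differences, but also Zmiz2 and Pias4, at 0.68 and 0.52 with all libraries. With values as deposited the log2 differences were 0.086 for Pias2, 0.087 for Senp3 and 0.17 for Topors. Under quantile normalization they were -0.11 for Pias1, -0.10 for Rwdd3, -0.019 for Uspl1 and -0.094 for Zfp451. With the highest locus they were -0.0097 for Rnf111, 0.35 for Senp3, -0.13 for Uspl1 and -0.083 for Zfp451, and with midpoints of the bounds -0.057 for Pias1, 0.20 for Pias2, -0.80 for Uspl1 and -0.13 for Zfp451. With each library left out in turn, they ranged from -0.27 to 0.080 for Pias2, -0.24 to 1.28 for Pias4, -0.13 to 0.16 for Rwdd3, -0.43 to 0.21 for Senp3, -0.075 to 0.015 for Topors, -0.20 to 0.30 for Uspl1, -0.29 to 0.31 for Zfp451 and -0.20 to 1.57 for Zmiz2.

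Whether the replicate numbers pair the libraries is not known. Deviations from the group mean of wild type library 1 and knockout library 1 had a correlation of 0.0811 over 7931 genes. With 2 libraries per group this cannot decide it. With the replicate block 0 genes passed the adjusted threshold, and Sae1 kept 1.41 with an SE of 0.19. The fit over 4 libraries has 2 residual degrees of freedom, which limits every call here, and no read counts were used, so counting error could not be separated from other spread.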
